A study of Homo sapiens with 7 samples.

Results

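The elements numbered 66001 to 68000 are a stretch of a numbered element list. The list was tested in HepG2, an established human liver carcinoma line, with a massively parallel reporter assay (MPRA) delivered by lentivirus. Members were every element with a number in that range, in forward or reverse orientation, that had at least 10 counts in each of the 3 DNA libraries. This gave 3837 of the 134435 copies tested in the series, where a copy is 1 numbered sequence in 1 orientation. The range was chosen by measured values: activity along the numbers, and the difference between odd and even numbers, had been seen in these same libraries before its limits were set. Levels of activity and odd-even differences are therefore given as a description with no test of the range. The first count of copies or pairs of each kind called by the model stands beside the share called in the whole series. Such counts describe the range and test nothing about it.

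Each test element was 170 nucleotides long, with 15 more on each side, and stood upstream of a minimal promoter and a transcribed barcode. The stated aim was to test hypotheses about ChIP-seq signal and the binding of transcription factors. Virus made in 293FT cells carried the pool into HepG2 cells grown in high-glucose DMEM with serum, and DNA and RNA were extracted after 48 h. The samples were 3 DNA libraries and 3 polyA RNA libraries of infected cells, each replicate from 8 wells, and 1 plasmid library that tied barcodes to elements. All infected libraries came from the same untreated cell line and the same pool, so molecule was the only group. Whether the replicates were separate infections is not stated in the labels, so p-values and SDs reflect variation between these libraries only, and it may be technical. The tables hold element counts and no host genes, so the cell type was not checked against markers.

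A reporter assay of this kind measures whether a piece of DNA can raise transcription from a promoter that is weak on its own. An enhancer placed before such a promoter raises the RNA of its barcode, and because the virus integrates, the barcode DNA counts how many copies of the construct the cells hold. RNA over DNA is then the activity of the element. Enhancers are classically described as working in either orientation, whereas promoters transcribe mainly in one direction, which is why libraries may carry each element both ways. Elements with neighbouring numbers may share bases or a design, but no file used here ties the bases, the genomic position or the class of an element to its number, so element sequences are not printed.

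The sequences that could be read for these elements are their barcodes. The 15-base barcodes below are all those assigned to 3 copies of the 2 sequences with the lowest activity, and they show how few tags those values rest on. Each is printed 5′ to 3′ in lower case, with no part marked.
Seq_66918_rev, first barcode: tactcaagttgtgat
Seq_66918_rev, the other barcode: ttcaagcctcacatt
Seq_66921_fwd, its single barcode: atgtctatattgttt
Seq_66921_rev, its single barcode: aaatatctataatct

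Of the 2000 numbers in the range, 1947 were listed in the tables, 1931 of them in both orientations, 7 in forward alone and 9 in reverse alone. The 53 unlisted numbers (24 odd, 29 even) fell into 28 runs, 18 of them a single number, and the longest run was the 16 numbers from 66900 to 66915. Copies within 2 numbers of an unlisted one often had few barcodes: 40 of 197 (20.3%) had under 10, against 77 of 3681 (2.09%) elsewhere in the range. Of 3878 listed copies, 41 missed the DNA filter (19 odd and 22 even, 20 forward and 21 reverse), with 1 to 21 barcodes and a median of 3. The filter looks at DNA alone, so a copy could not pass it through high RNA. Both orientations passed for 1902 sequences.

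Library totals were 34860651 to 44258011 counts in DNA and 108324310 to 114738370 in RNA. The members took 2.93% to 2.95% of the DNA counts and 2.89% to 2.91% of the RNA counts, with a median per copy of 242 to 312 counts in DNA and 583 to 615 in RNA. Replicate libraries differed beyond the sampling noise of independent counts. Over copies of the whole series, chi-square per degree of freedom was 3.01 to 3.46 in DNA and 5.86 to 6.60 in RNA. Members' activity correlated between replicates with a Pearson's r of 0.926 to 0.934 across copies, which are not independent. Well tagged members repeated better. Among 81 members with 1 to 9 barcodes the SD of activity over the 3 replicates had a median of 0.20. Among 1562 with 50 to 99 it was 0.16, and among 87 with 200 or more it was 0.13. These SDs are of ratios with 1 CPM added to RNA and DNA, which pulls ratios of low counts towards 0. The median SE of the fitted log2 RNA/DNA was 0.29, 0.13 and 0.086 in the same 3 groups.

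Across the whole range, calls of activity fell into 3 groups of similar size: higher, lower and not called. Activity is given below as log2 RNA/DNA after TMM scaling, which sets 0 near the bulk of all copies in the series and not at the level of a known inactive element. With edgeR's quasi-likelihood test, 1217 of 3837 copies (31.7%) were called higher in RNA than in DNA, where 35.2% were called higher in the whole series, and 1251 (32.6%) were called lower, where the whole series had 32.2%. RNA was called and at least 2-fold higher for 610 copies (15.9%; whole series 17.7%), 4-fold or more in 123 (3.21%; 2.18%) and 8-fold or more in 0 (0.179% in the whole series). It was called and at least 2-fold lower for 25 (0.652%; 0.488%). These counts depend on where the centre lies. With library size alone the centre moves by 0.43 on the log2 scale, and 345 copies were at least 2-fold higher and 484 at least 2-fold lower. The 2-fold lower count was 60 without replicate 1, 39 without replicate 3, 15 with at least 50 DNA counts and 1 with limma.

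The 5 most active sequences all had even numbers above 67900. Seq_67934 was the highest, with a mean log2 RNA/DNA of 2.87 over its orientations. Its forward copy, with 153 barcodes, held 14.7, 13.9 and 16.2 CPM (counts scaled to each library's total) in the DNA libraries and 74.4, 78.5 and 70.1 CPM in the RNA libraries. The reverse copy, with 161 barcodes, held 9.74, 10.2 and 11.9 CPM in DNA against 62.0, 61.6 and 64.4 CPM in RNA. All RNA values lay far above all DNA values in both orientations, and the fitted log2 RNA/DNA was 2.75 (SE 0.09) forward and 2.996 (SE 0.09) in reverse, the latter the highest value of any member copy. These fitted values are larger than the plain ratio of the printed CPM because they carry the TMM scaling. Seq_67918 followed with a mean of 2.74, then Seq_67948 with 2.66, Seq_67902 with 2.52 and Seq_67944 with 2.45. The forward copy of Seq_67918 held 5.69, 6.18 and 7.20 CPM in DNA and 29.8, 29.3 and 31.8 CPM in RNA. These 4 sequences carried 87 to 143 barcodes per copy.

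The lowest values came from copies with little DNA. Seq_66918 had the lowest mean log2 RNA/DNA, -1.38, with 5 barcodes forward and 2 in reverse. In its reverse copy DNA was 0.768, 0.629 and 0.660 CPM and RNA 0.139, 0.0909 and 0.102 CPM, so that RNA lay below DNA in every replicate, and its fitted value of -2.19 (SE 0.46) was the lowest of any member. Seq_66921 followed with -1.29, each of its copies resting on the single barcode printed above. Its forward copy held 1.58, 1.26 and 2.41 CPM in DNA and 0.645, 0.345 and 1.05 CPM in RNA. Seq_67022 (-1.08), Seq_67024 (-0.95) and Seq_66292 (-0.91) rested on 12 to 29 barcodes per copy. For Seq_67022, the best tagged of them, the forward copy held 3.34, 2.00 and 2.24 CPM in DNA and 0.654, 0.864 and 0.849 CPM in RNA. No DNA and RNA values overlapped in the copies whose CPM are given here.

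Along the numbers, activity was low in most blocks of 100 up to 67600 and high from there on. The median per-replicate log2 RNA/DNA, for which 1 CPM was added to RNA and DNA, was -0.13 ± 0.02 (SD, n = 3) over the 3083 copies numbered up to 67600. It was 0.94 ± 0.01 over the 754 copies from 67601. The block edge at 67600 was chosen after seeing the values. Copies called and at least 2-fold higher made up 6.97% of the first stretch and 52.4% of the last 400 numbers. The lowest block was 66201 to 66300 (-0.28 ± 0.02), in which 1 of 200 copies was called at least 2-fold higher. Blocks 66401 to 66500 (0.25 ± 0.03) and 66501 to 66600 (0.37 ± 0.06) rose above the others of the first stretch, with 22.2% and 28.5% of copies at least 2-fold higher. The remaining blocks of that stretch had medians between -0.23 and 0.03. The last 4 blocks had medians of 0.46 ± 0.01, 0.98 ± 0.03, 0.79 ± 0.04 and 1.46 ± 0.04 (SD, n = 3). In the last of them, 67901 to 68000, 78.0% of copies were at least 2-fold higher, including all 100 even copies.

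Activity in the first stretch came in short runs of consecutive numbers. There, 63 of 1531 sequences (4.11%; whole series 13.6%) were called and at least 2-fold higher in both orientations, and they formed 17 runs, of which 4 were a single number. The longest run went from 66014 to 66024 (11 sequences), with means over orientations of 1.33 to 2.05 on the log2 scale. Next came 66447 to 66455 (9 sequences, 1.50 to 2.32), 66505 to 66512 (8 sequences), 67557 to 67563 (7 sequences) and 66457 to 66462 (6 sequences). Between the second and last of these lies number 66456, which was not listed. Runs of 5 or more held 41 of the 63 sequences. Within the block that opens the range, the median fell from 1.49 ± 0.08 at 66011 to 66020 to -0.15 ± 0.02 at 66031 to 66040. The last 400 numbers looked different. They held 169 such sequences of 371 (45.6%) in 101 runs, and 79 of those runs were a single number. Their longest run was 67938 to 67954 (17 sequences), followed by 67960 to 67966 (7 sequences).

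Neighbouring numbers had similar activity in the first stretch, and similarity faded with distance. Pearson's r of log2 RNA/DNA across sequences was 0.80 forward and 0.84 in reverse for numbers 1 apart (n = 1515 and 1510), and 0.72 and 0.78 for numbers 2 apart. It was 0.31 and 0.37 for numbers 10 apart and 0.10 in both orientations for numbers 20 apart. In the whole series r was 0.48 and 0.49 for numbers 1 apart and 0.45 and 0.47 for numbers 2 apart. Up to 67600 it made little difference whether an odd number was set against the next even number (r 0.79 forward, 0.82 reverse) or an even number against the next odd one (0.81 and 0.86). All these points share libraries and depth, and sequences are not replicates, so no p is given.

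From 67601 the similarity alternated. Numbers 1 apart gave an r of 0.21 forward and 0.04 in reverse (n = 361 and 366), whereas numbers 2 apart gave 0.67 and 0.74 (n = 351 and 359). Numbers 3 apart returned to 0.17 and 0.04, numbers 4 apart to 0.66 and 0.72, numbers 5 apart to 0.14 and 0.02, and numbers 6 apart to 0.64 and 0.70. The median absolute difference in reverse was 1.01 on the log2 scale for numbers 1 apart and 0.39 for numbers 2 apart. Neighbours were not unrelated once parity was held fixed. Taken as odd with the next even number, r was 0.52 forward and 0.50 in reverse, and taken as even with the next odd number it was 0.57 and 0.60. Even numbers correlated with the next even number at 0.69 and 0.66, and odd with the next odd number at 0.39 and 0.52.

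The alternation was a difference in level: from 67601 even numbers were more active than odd ones. The 377 odd copies had a median log2 RNA/DNA of 0.54 ± 0.02 (SD, n = 3) and the 377 even copies 1.51 ± 0.04. In the 3 replicates the odd medians were 0.53, 0.53 and 0.56 and the even medians 1.51, 1.54 and 1.47, so the medians did not overlap between replicates. Single copies overlapped, with fitted log2 RNA/DNA from -0.91 to 1.89 in odd and from -0.86 to 2.996 in even copies. Of the even copies 74.8% were called at least 2-fold higher and 28.6% (108 copies) at least 4-fold, against 30.0% and 0 of the odd copies. Up to 67600 the medians were -0.12 ± 0.03 for odd and -0.13 ± 0.02 for even copies, and 7.05% and 6.90% were at least 2-fold higher. All 15 copies at least 4-fold higher in that stretch were divided as 6 odd and 9 even. In the 16 blocks up to 67600, the median odd minus even difference within pairs (odd number and the next) ran from -0.03 to 0.05. In the 4 blocks after it the difference was -0.72 ± 0.10, -0.75 ± 0.05, -0.73 ± 0.01 and -0.98 ± 0.09 (SD, n = 3).

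The change from one pattern to the other fell within a few numbers. At 67601 to 67610 odd copies had a median of -0.32 ± 0.04 and even copies -0.23 ± 0.07. At 67611 to 67620 the values were 0.45 ± 0.04 and 1.17 ± 0.19, with 10 copies of each parity in each window. Even copies of 67611 to 67690 stayed high, with a median of 1.20 ± 0.02 against 0.28 ± 0.02 for odd copies. The parities then came close in level. Across 67691 to 67730 odd and even copies were both low, at -0.16 ± 0.08 and -0.12 ± 0.07, and the 67 copies listed there carried a median of 16 barcodes, against 80.5 for the 158 listed in the window before. Whether barcode number has a part in that was not tested. A wider gap returned at 67731 to 67810 (odd 0.78 ± 0.02, even 1.58 ± 0.05) and shrank at 67811 to 67850 (0.07 ± 0.05 and 0.40 ± 0.04), where the median was 122.5 barcodes per copy. From 67851 to 68000 the even copies had a median of 1.88 ± 0.05 and 145 of 146 were called at least 2-fold higher. The odd copies had 0.91 ± 0.04, with 74 of 146 at least 2-fold higher. These windows were drawn after the values were seen.

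Pairs of an odd number and the next even number were compared within each orientation by the interaction of molecule with pair member, fitted over all 65566 such pairs of the series. Because the range was drawn on this contrast, its counts are a description. Of 1884 pairs in the range, 125 were called with the odd number higher (6.63%; whole series 21.0%) and 393 with the even number higher (20.9%; 22.2%). In all 27.5% were called, against 43.2% in the whole series, and 10.6% were called with at least a 2-fold difference, against 18.2%. Up to 67600 the split was even, with 116 odd higher and 123 even higher of 1513 pairs. From 67601 it was 9 against 270 of 371 pairs (75.2% called), and 169 of those 270 differed at least 2-fold. The forward and reverse copies carry different barcodes and so measure the pair separately. Of 934 pairs tested in both orientations, 20 were called odd higher in both (2.14%; whole series 13.2%) and 139 even higher in both (14.9%; 14.3%), and the odd count was 13 without replicate 2. From 67601 on these counts were 2 and 117 of 183 pairs, and up to 67600 they were 18 and 22 of 751.

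Setting each even number against the next odd number gave the same picture from the other side. From 67601, 258 of 356 such pairs were called with the even number higher and 7 with the odd number higher. Over the range the counts were 369 of 1868 (19.8%; whole series 22.1%) and 122 (6.53%; 21.0%). Numbers 2 apart, which share parity, were called in 25.1% of 1870 comparisons, where the whole series had 46.3%. From 67601 these calls were balanced, with 82 higher in the lower number and 92 in the higher number of 358. The comparison of a number with the one 2 above it reuses copies of the pair comparisons, so these counts are not independent of each other.

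The even excess from 67601 was larger in reverse than in forward orientation. The median odd minus even difference was -0.57 ± 0.06 over 185 forward pairs, at -0.61, -0.59 and -0.50 in the 3 replicates. It was -1.01 ± 0.03 over 186 reverse pairs (SD, n = 3), at -1.03, -1.02 and -0.97. The forward and reverse values did not overlap between replicates, and the difference between orientations was not tested. The even number was called higher in 119 forward and 151 reverse pairs. Among pairs, the forward difference correlated with the reverse difference at r = 0.79 from 67601 and at r = 0.37 up to 67600. Relative DNA abundance of even copies from 67601 was higher in DNA replicate 3 than in DNA replicate 1, by a median of 0.08 on the log2 scale, while odd copies gave -0.01. Without DNA replicate 3, an alternative added after seeing the data, 371 pairs of the range were called even higher and 122 odd higher.

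In the pairs with the largest even excess in both orientations, the odd member lay at -0.62 to 0.68 on the log2 scale. The even member lay at 1.91 to 2.80. Seq_67869 and Seq_67870 differed by -2.59 on the log2 scale, averaged over orientations. In reverse, Seq_67869 held 12.0, 12.4 and 13.0 CPM in DNA and 6.60, 6.61 and 7.39 CPM in RNA. Its neighbour Seq_67870 held 4.29, 4.81 and 5.28 CPM in DNA and 21.3, 19.3 and 19.5 CPM in RNA. RNA thus lay below DNA in every library of the odd member and above it in every library of the even member. The difference was -2.93 (SE 0.14) in reverse and -2.25 (SE 0.16) forward. Seq_67643 and Seq_67644 followed with a mean difference of -2.49. Seq_67643 in reverse held 10.1, 8.30 and 9.58 CPM in DNA and 4.68, 4.31 and 4.60 CPM in RNA. Seq_67644 in reverse held 7.05, 6.24 and 7.54 CPM in DNA and 26.2, 24.6 and 23.0 CPM in RNA. The next pairs were Seq_67917 with Seq_67918 (-2.42), Seq_67861 with Seq_67862 (-2.38) and Seq_67901 with Seq_67902 (-2.32). The even members Seq_67918 and Seq_67902 are among the 5 most active sequences of the range.

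Pairs with the largest odd excess were all numbered below 67600. Seq_67183 exceeded Seq_67184 by 1.90 on the log2 scale, averaged over orientations, with 8 to 34 barcodes per copy. Seq_67183 forward held 9.85, 7.50 and 7.77 CPM in DNA and 17.3, 18.8 and 18.2 CPM in RNA. Seq_67184 forward held 7.14, 7.55 and 8.46 CPM in DNA and 5.34, 5.05 and 4.36 CPM in RNA. On the CPM scale, RNA exceeded DNA in each replicate of the odd member and fell short of it in each replicate of the even member. The other pairs were Seq_66809 with Seq_66810 (1.25), Seq_66421 with Seq_66422 (1.12), Seq_66025 with Seq_66026 (1.06) and Seq_66613 with Seq_66614 (1.02). Seq_66025 lies just past the longest run of active sequences in that stretch, which ended at 66024. From 67601 the odd number was called higher in both orientations in 2 pairs, Seq_67653 with Seq_67654 (1.08 forward, 0.67 reverse) and Seq_67809 with Seq_67810 (0.79 and 0.64), named because they go against the rest.

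Some neighbours were active alike. In 35 of the 183 pairs from 67601 both members were called and at least 2-fold higher in both orientations, in 97 (53.0%) only the even member was, in 1 (Seq_67809) only the odd member, and in 50 neither. Up to 67600 the same classes held 23, 5, 10 and 713 of 751 pairs, and in the whole series 5.06% of pairs had both members active, 8.88% only the even member and 8.08% only the odd member. Among pairs with both members active, the smallest mean differences were those of Seq_66015 with Seq_66016, Seq_67941 with Seq_67942, Seq_67803 with Seq_67804, Seq_67931 with Seq_67932 and Seq_66461 with Seq_66462. Seq_67941 forward held 8.00, 6.69 and 8.75 CPM in DNA and 21.4, 21.0 and 22.1 CPM in RNA. Seq_67942 forward held 6.58, 6.81 and 7.83 CPM in DNA and 18.3, 18.4 and 20.1 CPM in RNA. Their difference was 0.04 (SE 0.14) forward and -0.07 (SE 0.15) in reverse. The near-zero mean of Seq_66015 and Seq_66016 came from opposite orientations: the odd minus even difference was -0.41 (SE 0.15) forward and 0.44 (SE 0.15) in reverse, both called. Opposite calls of this kind also occurred in Seq_66207 with Seq_66208 and in Seq_66705 with Seq_66706, and in no other pair of the range.

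Orientation was not used to draw the range, but the difference between odd and even numbers was. Forward copies were called more active than reverse copies of the same sequence in 511 of 1902 sequences (26.9%; whole series 24.7%) and less active in 115 (6.05%; 7.68%), both near the background shares. The forward count was 329 without replicate 2, and the reverse count was 64 without replicate 1 and 70 without replicate 2. The 2 orientations correlated across sequences at r = 0.86, with 0.74 up to 67600 and 0.91 from 67601. The median forward minus reverse difference was 0.20 ± 0.02 (SD, n = 3) up to 67600. From 67601 it depended on parity. Odd sequences had a median of 0.24 ± 0.03, with 71 of 185 called higher forward (38.4%; odd in the whole series 24.9%) and 14 in reverse (7.57%; 7.56%). Even sequences had a median of -0.18 ± 0.06, with 12 of 186 called higher forward (6.45%; even in the whole series 24.5%) and 36 in reverse (19.4%; 7.80%). The medians did not overlap between replicates, and the difference between parities was not tested. It is the larger even excess in reverse given above, seen from the other side in the same copies, and not a second result. Numbers 68001 to 69210, which lie outside the range, gave 0.21 ± 0.03 for odd and -0.13 ± 0.04 for even sequences.

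Activity itself goes with orientation, so sequences of like activity were set beside these. In the window of mean log2 RNA/DNA that holds the middle of the even group from 67601 (1.10 to 2.09), the 92 even sequences had a forward minus reverse median of -0.24 ± 0.06. The 70 sequences up to 67600 in that window gave -0.02 ± 0.08 and the 8816 sequences below 66001 gave -0.03 ± 0.02 (SD, n = 3). In the corresponding window of the odd group (-0.01 to 1.08), the 93 odd sequences gave 0.19 ± 0.03, against 0.20 ± 0.03 for 447 sequences up to 67600 and 0.11 ± 0.01 for 19237 sequences below 66001.

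The 3 largest called orientation differences each way all belonged to sequences numbered up to 67600. Seq_66600 was active forward and not in reverse. Its forward copy held 5.72, 6.38 and 7.09 CPM in DNA and 10.9, 12.2 and 12.2 CPM in RNA. Its reverse copy held 11.2, 11.5 and 9.06 CPM in DNA and 6.77, 6.75 and 6.04 CPM in RNA, so the sign turned with orientation in every replicate. The fitted difference was 1.58 (SE 0.15, adjusted p = 6.31e-11, edgeR). Seq_66986 had a forward excess of 1.52 (SE 0.23, adjusted p = 1.64e-06). Seq_66918, the lowest sequence described above, had a fitted excess of 1.61 (SE 0.43, adjusted p = 0.00358), but its per-replicate difference was 0.12 ± 0.16 (SD, n = 3), because at CPM this low the 1 CPM added to each value pulls ratios towards 0. In the other direction, Seq_67569 had a difference of -1.68 (SE 0.22, adjusted p = 7.66e-08), with 4.27, 5.26 and 3.41 CPM in DNA and 1.72, 1.57 and 1.76 CPM in RNA forward. In reverse it held 3.66, 4.29 and 4.45 CPM in DNA and 5.49, 5.35 and 4.65 CPM in RNA. Seq_67522 had -1.41 (SE 0.44, adjusted p = 0.0114) and Seq_67567 -1.38 (SE 0.27, adjusted p = 0.000117). Seq_67569 and Seq_67567 stand 2 apart, with 27 to 50 barcodes per copy.

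Barcode number is a readout of the plasmid library that the choice of the range did not use. The members and the listed copies below the filter held 365550 of the 12452483 barcodes assigned in the series, and no barcode was assigned to 2 copies. From 67601 tested odd copies had a median of 98 barcodes forward and 109.5 in reverse, and even copies 83.5 and 95, so the more active parity carried fewer. Up to 67600 odd and even copies had 88 and 88 forward and 95 and 96 in reverse. Barcode GC content was alike, with medians from 38.8% to 39.2% in every group of parity, orientation and stretch. Neighbouring numbers resembled each other in barcode number more than in the series as a whole. Pearson's r between neighbours 1 or 2 apart was 0.42 to 0.46 in the range and 0.14 to 0.21 in the whole series, across copies and given without a p. Over the range r was 0.45 forward for an odd number with the next even one and 0.44 with the next odd one. From 67601 these values were 0.37 and 0.35. With parity held fixed in this way, r cannot show a difference in level between odd and even numbers. Activity and barcode number had a Spearman correlation of 0.09 across the members. Median DNA abundance from 67601 was close between parities, at 7.19 to 7.27 CPM in odd and 6.92 to 7.37 CPM in even copies. Median RNA was 7.55 to 7.79 CPM in odd and 15.2 to 15.6 CPM in even copies, so the parities parted in RNA.

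Activity rose briefly at the low end of the range, and the high end lay inside the active stretch. The block of 100 before the range had a median of -0.34 ± 0.02, and 0 of its 193 copies were called at least 2-fold higher. Numbers 66001 to 66010 had a median of 0.87 ± 0.08, with 8 of 20 copies at least 2-fold higher, and in 66011 to 66020 this held for 16 of 18. By 66031 to 66040 the median was -0.15 ± 0.02. The whole block 66001 to 66100 had a median of -0.23 ± 0.03, with 33 of 198 copies at least 2-fold higher. The numbers next to the limit differed less. Seq_65999 and Seq_66000, just outside, had log2 RNA/DNA of 0.03 to 0.34 over their 4 copies. Seq_66001 and Seq_66002, just inside, had -0.08 to 0.55. At the upper end Seq_67999 had 0.75 forward and 0.90 in reverse and Seq_68000 had 2.06 and 2.28, just inside. Seq_68001 had 1.23 and 0.57 and Seq_68002 had 1.53 and 1.83, just outside. The block 68001 to 68100 had a median of 1.46 ± 0.02 for odd and 2.30 ± 0.08 for even copies, higher than any block of the range, and block 68101 to 68200 had 0.14 ± 0.06 and 1.03 ± 0.03. At the DNA filter, Seq_67434_fwd with 26, 29 and 10 DNA counts and Seq_66649_fwd with 14, 11 and 21 were just inside. Seq_67513_rev with 41, 9 and 39 and Seq_66356_fwd with 32, 34 and 9 were just outside.

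The authors' deposited table gives a log2 signal per copy from the pooled replicates. Across the members it correlated with the fitted log2 RNA/DNA at r = 0.99994, since both come from the same counts, and lay lower by a median of -0.43. At a signal of 1 or more the authors' deposited table holds 346 members (9.02%). The share of the whole series at that signal is not given here, so this count has no reference. The median signal was -0.49 over the members and -0.47 over the whole series. In that table the median signal from 67601 was 0.18 for odd and 1.25 for even copies, and up to 67600 it was -0.59 and -0.60.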

How the data were processed

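Whole-number counts per element and orientation were taken from the 6 deposited library tables, per the file headers. The authors' deposited pooled table gives CPM, their ratio (RNA CPM over DNA CPM with 0.01 added to each, as recovered from the values) and the log2 of that ratio. Barcodes came from the deposited association table. BWA 0.7.17 and hg38 appear, with no role given, in the submitters' processing notes. The counter, the barcode filters and any use of molecular identifiers are not given in the sources used here.

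Every copy of the series that reached 10 counts in each of the 3 DNA libraries was fitted with edgeR 4.0.16 in R 4.3.3 (quasi-likelihood, robust, TMM). The fit compared RNA with DNA per copy. Interactions of molecule with pair member, or with orientation, used the same tool. P-values were adjusted (Benjamini-Hochberg) over the whole series, and a call is an adjusted p under 0.05. Standard errors were taken as log2 fold change divided by the root of F. Per-replicate values are log2((RNA CPM + 1)/(DNA CPM + 1)) of same-numbered libraries after TMM scaling; printed CPM use library totals alone. The tests were checked on simulated data of 134400 copies or 65570 pairs. In each, 67, 67 and 66 were changed by 1.5-, 2- and 4-fold, and all others were left unchanged. The activity test recovered 65.7%, 97.0% and 100% of the changed copies, and 4.89% of its calls were false. The test of odd against next even number recovered 20.9%, 83.6% and 100% of the changed pairs, and 7.48% of its calls were false. In the real series far more was called: 35.2% of copies higher, 32.2% lower, and 43.2% of pairs. The adjusted p threshold acts differently there, so these simulated shares do not carry over to the real calls.

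The members and all lists were chosen with earlier results of these data known. Named were the 5 highest and 5 lowest sequences, the 5 pairs with the largest called excess of each parity in both orientations, the 5 active pairs most alike, the 3 largest called orientation differences each way, the numbers and copies at the edges of the range and of the filter, and the highest and lowest blocks. Alternatives covered normalization, filters, pseudocount, limma 3.58.1, DESeq2 1.42.0, a replicate block and leaving out libraries.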

Additional observations from a re-analysis of the deposited data

Results flagged for a closer look

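Seq_67797_fwd missed the DNA filter and was in no comparison, yet it carried RNA. It had 26 RNA counts summed over the 3 RNA libraries (6, 10 and 10) and no count in any of the 3 DNA libraries. A DNA count of 0 allows up to 3 counts over the DNA libraries together, which corresponds to 8.76 RNA counts at equal abundance, for counting error only. That limit takes each count as an independent event. All 23 single-barcode copies of the range, this one included, had only even counts, so the limit may be too low here. The copy rests on 1 barcode. Of the 5 copies in the range with no DNA count, 4 had RNA counts and this was the 1 above that limit.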

How the results depend on the processing

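With library size alone, the median activity was -0.40 for odd and -0.37 for even copies (-0.05 and -0.02 with TMM), 2367 copies were lower, 345 were at least 2-fold higher and 484 at least 2-fold lower, as the centre moved by 0.43, so the 2-fold calls, mostly higher with TMM, were then mostly lower. The 2-fold lower count, 25 in the report, was 1 with limma and 15 with at least 50 DNA counts, which leaves fewer copies. With a pseudocount of 0.1 CPM the median odd minus even difference was -0.069 (-0.056 with 1 CPM). Leaving out each replicate in turn gave 35 to 60 copies at least 2-fold lower, 13 to 15 pairs odd higher in both orientations, 329 to 346 sequences higher forward and 64 to 92 in reverse. The correlations became 0.724 to 0.736 for odd with the next even number, 0.755 to 0.768 for even with the next odd and 0.803 to 0.810 for numbers 2 apart (0.741, 0.772 and 0.817 with all replicates); fewer libraries enter each mean. The counts of pairs by orientation stayed within 1.5 times under every alternative run, and no median or correlation changed sign. The balance of all activity calls (1217 higher, 1251 lower) turned when any replicate was left out: 1111 and 1055 without replicate 1, 1140 and 1070 without replicate 2, and 1137 and 1095 without replicate 3. DESeq2 and its size factors were run for activity only. With the replicate number as a block, 126 pairs were odd higher and 390 even higher, 20 and 139 in both orientations, 514 sequences higher forward and 115 in reverse, with activity calls of 1218 and 1256. Deviations of same-numbered DNA and RNA libraries correlated at 0.0347 to 0.0516, and the other 6 pairs of libraries at -0.0348 to -0.00976. Each library thus correlated best with its own number, a hint from the data, not the design. The correlations are small, and whether same-numbered libraries are paired was not tested. Without DNA replicate 3, an alternative added after seeing the data, every count stayed within 1.5 times, with 33 copies at least 2-fold lower, 21 pairs odd higher and 127 even higher in both orientations, and 430 sequences higher forward and 100 in reverse.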

Other observations

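Some copies below the DNA filter had far more RNA than DNA, and these 2 were picked after their values were seen. Seq_67670_rev, on 3 barcodes, had 7, 4 and 3 DNA counts and 139, 84 and 94 RNA counts. Seq_67670_fwd, on 1 barcode, had 2, 0 and 0 DNA counts and 36, 20 and 10 RNA counts. Their number is even and lies in the alternating stretch.

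All 23 copies of the range with a single barcode had an even count, 0 included, in each of the 6 libraries. Seq_67706_fwd, for example, had 6, 2 and 4 counts in DNA and 28, 8 and 22 in RNA.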
